A study of Mus musculus with 12 samples.

Results

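The 10 listed genes of the mammalian circadian clock (Arntl, Clock, Per1, Per2, Per3, Cry1, Cry2, Nr1d1, Nr1d2 and Dbp) were described in whole bone marrow of B6 mice, and all 10 were found by symbol among the 21853 genes of the deposited expression table. Marrow was sequenced in 4 groups of 3 libraries, 12 in all, with collection on day 14 after total body irradiation (TBI). Control mice were not irradiated and no dosing is stated for them. TBI mice received 5 Gy of gamma rays at 0.66 Gy/min and were gavaged with the vehicle, 100 µL of olive oil. TBI+DEIX mice had the same irradiation and took DEIX by mouth at 25 mg/kg once a day for 14 days, and DEIX mice had that dose without irradiation. DEIX is taken here to be deinoxanthin, a carotenoid of bacteria that the title of the series names. The age and sex of the mice, and the hour at which each group was killed, are not given in the sources used here, and nothing says whether a library came from 1 mouse or several. The p-values measure the spread between these libraries. Marrow is a mixture of blood lineages, so the level of a gene reflects both its RNA per cell and the share of cells that make it, and fewer cells of a type and less RNA per cell cannot be told apart here.

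The circadian clock is a loop of transcription factors that nearly every mouse cell runs. CLOCK and BMAL1, the product of Arntl, bind E-box sequences and switch on the Per, Cry, Nr1d1, Nr1d2 and Dbp genes. PER and CRY proteins then return to the nucleus and block CLOCK and BMAL1, while the NR1D proteins (REV-ERBs) repress Arntl through ROR elements, and DBP acts on D-boxes. In the tissues of nocturnal mice Nr1d1 and Dbp RNA peak by day, Per1 and Per2 towards dusk, Cry1 later in the night and Arntl near dawn, in near antiphase to Nr1d1 and Dbp. Because the hour of death moves these RNAs, the set serves as a check on whether groups were collected at like times. In marrow, daily rhythms are also known in the release of leukocytes and stem cells.

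Values are FPKM, fragment counts scaled to transcript length and to the mapped fragments of the library, so levels can be set side by side between genes. The estimated worth of a single fragment put the libraries at about 22.6 to 54.6 M fragments, with TBI+DEIX replicate 1 the shallowest. The lowest member, Nr1d1, would rest on about 26 fragments in that library and up to 179 elsewhere, and Dbp on 29 to 282. The other 8 members had at least 173. Differences were tested as log2(FPKM + 1) with limma over the 10994 genes that reached 1 FPKM in 3 or more libraries, and "called" means a p under 0.05 after Benjamini-Hochberg adjustment. Nr1d1 stayed below that filter and was not tested. The other 9 members were.

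In control marrow Cry1 was the highest member at 12.7 ± 0.711 FPKM (SD, n = 3). Arntl followed at 7.34 ± 0.847 FPKM and Per1 at 6.57 ± 1.42 FPKM, and these neighbours overlapped. Cry2 (3.61 ± 0.371), Per2 (3.51 ± 0.0887) and Nr1d2 (3.24 ± 0.361) overlapped in level. Dbp lay below them at 2.6 ± 0.225 FPKM. Clock (2.19 ± 0.44) and Per3 (2.14 ± 0.117) also overlapped. Nr1d1 was lowest at 0.690 ± 0.0224 FPKM. Npas2 and Arntl2, the paralogues of Clock and Arntl, were near 0, with the highest of the 12 libraries at 0.0418 and 0.0687 FPKM.

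**Figure D1:**
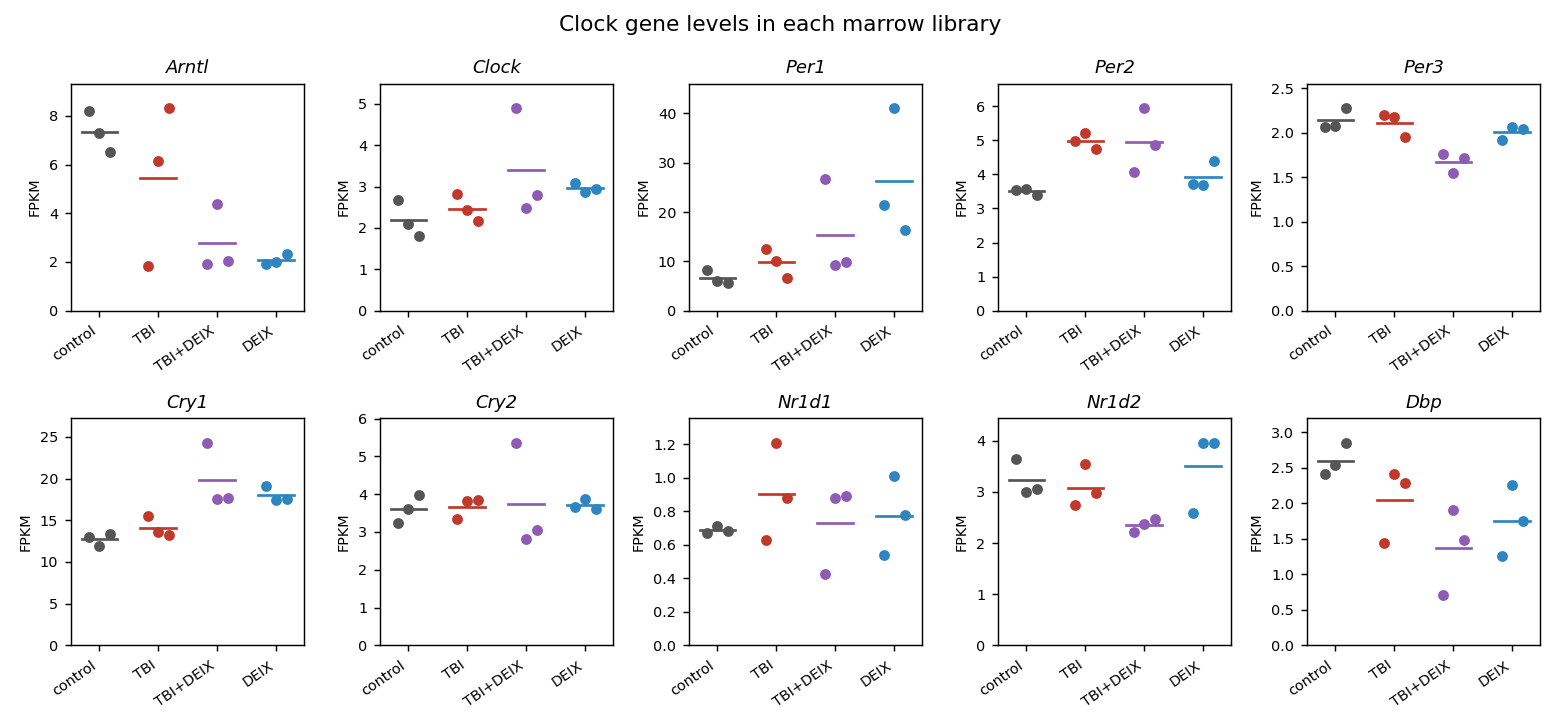
FPKM (vertical axis, from 0) of each clock gene in the 12 libraries, by group. Points are libraries in replicate order and lines are group means. Arntl was between 1.91 and 2.34 FPKM in the DEIX libraries against 6.51 to 8.20 in control, and Per1 was between 16.4 and 41.1 FPKM in DEIX against 5.57 to 8.19 in control.

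Across the 4 groups, 3 of the 9 tested members differed by limma's moderated F test, namely Cry1 (adjusted p 0.0172), Per1 (0.0369) and Arntl (0.0487). Over all tested genes that test called 21%. Among 19 alternatives the F call was lost in 3 for Cry1, 9 for Per1 and 12 for Arntl, with adjusted p up to 0.535, 0.103 and 0.13. It was gained with limma's array weights, which weight each library by its spread (from 0.0709 for TBI+DEIX replicate 1 to 11 for control replicate 2), by Clock (adjusted p 0.0316), Per2 (0.000128), Per3 (0.0309) and Dbp (0.0128), beside 69.3% of all tested genes. Per2 also gained it without TBI+DEIX replicate 1 (0.00802) and Nr1d2 without DEIX replicate 1 (0.0427). DEIX against control called 3 members, with Per1 and Cry1 higher and Arntl lower, beside 7.24% of all tested genes (4.52% higher and 2.72% lower). TBI+DEIX against control called 4, with Cry1 and Per2 higher and Arntl and Dbp lower, beside 30% of all genes (16.9% higher and 13.1% lower). TBI+DEIX against TBI called Cry1 alone, as higher, beside 8.1% of all genes (4.69% higher). TBI against control, which asks what irradiation with vehicle changed, called 0 members by limma, with 1 at an unadjusted p under 0.05 (Per2), beside 3.99% of all genes. TBI+DEIX against DEIX called 0, with 1 at an unadjusted p under 0.05 (Nr1d2), beside 2.57% of all genes. The interaction, the DEIX effect in irradiated minus that in unirradiated mice, called 0, with 1 at an unadjusted p under 0.05 (Per1), beside 0.2% of all genes. The comparisons share groups, so they are not independent of each other.

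The libraries of DEIX and control did not overlap for 7 of the 10 members, with Clock, Per1, Per2 and Cry1 higher and Arntl, Per3 and Dbp lower, beside 40.6% of tested genes (23.4% higher, 17.2% lower). In TBI+DEIX against control the count was also 7, with Per1, Per2 and Cry1 higher and Arntl, Per3, Nr1d2 and Dbp lower, beside 44.9% (23.9% higher, 21.1% lower). In TBI against control it was 2 (Per2 higher, Dbp lower), beside 38.2% (22% higher, 16.3% lower). In TBI+DEIX against TBI it was 3 (Cry1 higher, Per3 and Nr1d2 lower), beside 27.2% (14.5% higher, 12.7% lower). TBI+DEIX lay below DEIX without overlap for Per3 and Nr1d2, beside 17.7% of tested genes (8.96% lower). The median change of the 9 tested members lay close to that of all genes in each contrast, for example 0.07 against 0.02 on the log2 scale in DEIX against control.

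**Figure D2:**
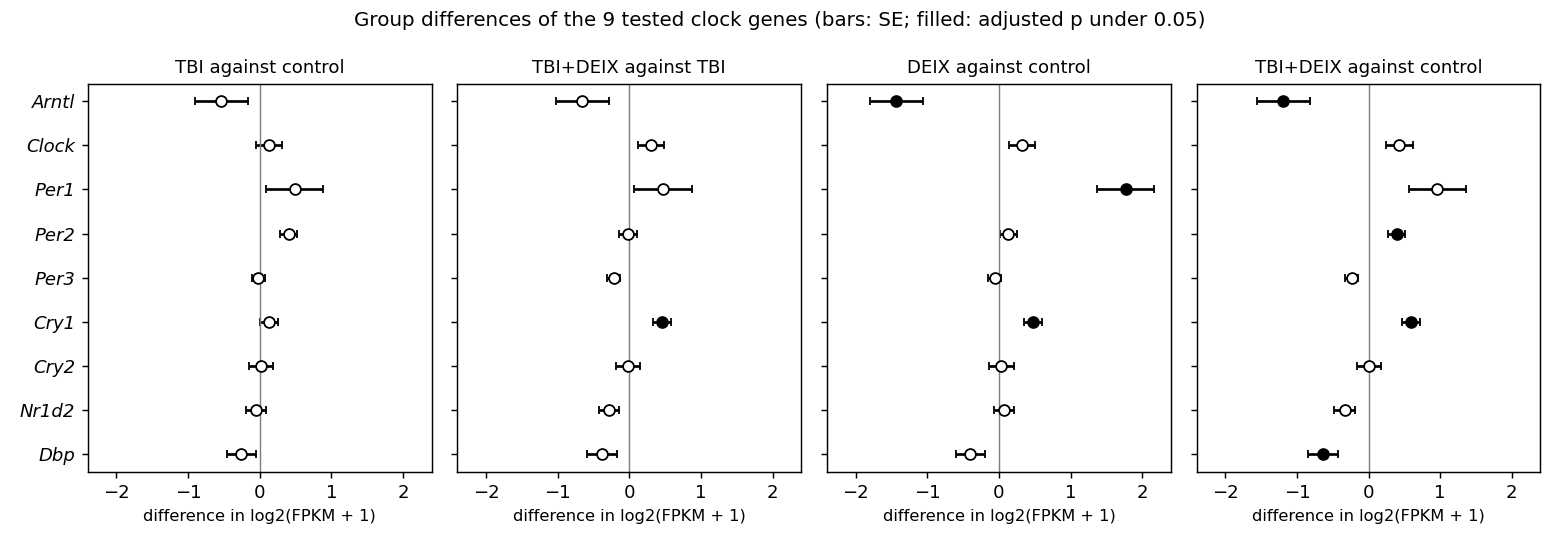
Difference in log2(FPKM + 1) between groups for the 9 tested members, in 4 comparisons. Bars are the standard error from limma and filled points had an adjusted p under 0.05. Arntl fell and Per1 rose most in DEIX against control, by -1.43 and 1.77, while Cry2 stayed next to 0 in each panel.

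Arntl encodes BMAL1, the activator that pairs with CLOCK (ENSMUSG00000055116.8, chromosome 7, 113207465 to 113314126, plus strand, GRCm38). Its promoter window is shown because it holds the only ROR element found among the members, the sequence through which REV-ERBs and RORs act. The window runs from 250 bases before to 50 after a start site (RefSeq, GRCm38.p6, chr7:113207261-113207560, plus strand), and the ROR element is in capitals.
Arntl: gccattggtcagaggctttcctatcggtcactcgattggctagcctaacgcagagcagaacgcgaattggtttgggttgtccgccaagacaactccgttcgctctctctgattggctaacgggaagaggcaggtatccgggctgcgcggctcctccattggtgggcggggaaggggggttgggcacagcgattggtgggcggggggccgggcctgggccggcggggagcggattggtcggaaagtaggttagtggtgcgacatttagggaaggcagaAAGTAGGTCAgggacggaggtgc

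Arntl was at 8.20, 7.30 and 6.51 FPKM in control replicates 1 to 3. In TBI it was at 1.83, 6.15 and 8.33 FPKM. In TBI+DEIX it was at 1.92, 4.40 and 2.05 FPKM, and in DEIX at 1.91, 2.00 and 2.34 FPKM. All DEIX and TBI+DEIX libraries thus lay below all control libraries, while the TBI group was split between a library at the DEIX level and a pair at or near the control level. Arntl fell by 1.43 on the log2(FPKM + 1) scale in DEIX against control (SE 0.37, adjusted p 0.0422), a mean level 3.53-fold lower in FPKM. In TBI+DEIX against control it fell by 1.19 (SE 0.37, adjusted p 0.0324). TBI differed from control by -0.53 (adjusted p 0.487) and TBI+DEIX from TBI by -0.66 (adjusted p 0.282). Both differences depend on TBI replicate 1, at 1.5 on that scale beside 2.84 and 3.22 in TBI replicates 2 and 3. Their values without it are not given here. The DEIX call was near the threshold and was lost with no filter on low values (adjusted p 0.0735), without any 1 of the control or DEIX libraries (0.0707 to 0.14) and without TBI replicate 2 (0.0586). The TBI+DEIX call was lost with no filter (0.0601), without any 1 control library (0.066 to 0.0915) and without TBI+DEIX replicates 1 or 3 (0.0668 and 0.0885).

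The genes whose levels over the 12 libraries were most like Arntl, among all tested genes, were Tnfrsf19 (Pearson r 0.995), Gfra1 (0.994), Rag2 (0.993), Rag1 (0.981) and Slamf6 (0.98). These r values are over log2(FPKM + 1), describe libraries that fall into 4 groups, and carry no test. Leaving out any 1 library or changing the scale kept each at 0.952 or more. RAG1 and RAG2 are the recombinases of developing lymphocytes that cut antigen receptor genes, and their genes are neighbours. Slamf6 is a lymphocyte surface receptor, and Tnfrsf19 and Gfra1 are receptors better known outside blood. Rag1 was at 31.6, 22.6 and 24.1 FPKM in control and at 0.795, 13.9 and 23.0 in TBI. It was at 0.168, 6.43 and 1.45 FPKM in TBI+DEIX and at 1.35, 1.70 and 2.28 in DEIX. TBI replicate 1, the library where Arntl was lowest, was also the TBI library with by far the least Rag1, and TBI+DEIX replicate 2 led its group for both genes.

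The 7 B lineage markers given here (Cd79a, Cd79b, Ms4a1, Ebf1, Pax5, Vpreb1 and Cd22) were all above 0 in every library. Their summed level was 297.4 to 369.3 FPKM in control, 54.0 to 81.8 in DEIX, 20.4 to 214.4 in TBI and 5.46 to 117.6 in TBI+DEIX. The markers did not move alike in TBI. There the mean of Vpreb1 was 1.53-fold that of control (4.69 to 85 FPKM, beside 32 to 37.5), while the means of the others were lower. Within TBI, TBI+DEIX and DEIX the libraries stood in the same order for this sum as for Arntl, and within control they did not. The part of B lineage content in the level of Arntl was not tested.

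**Figure D3:**
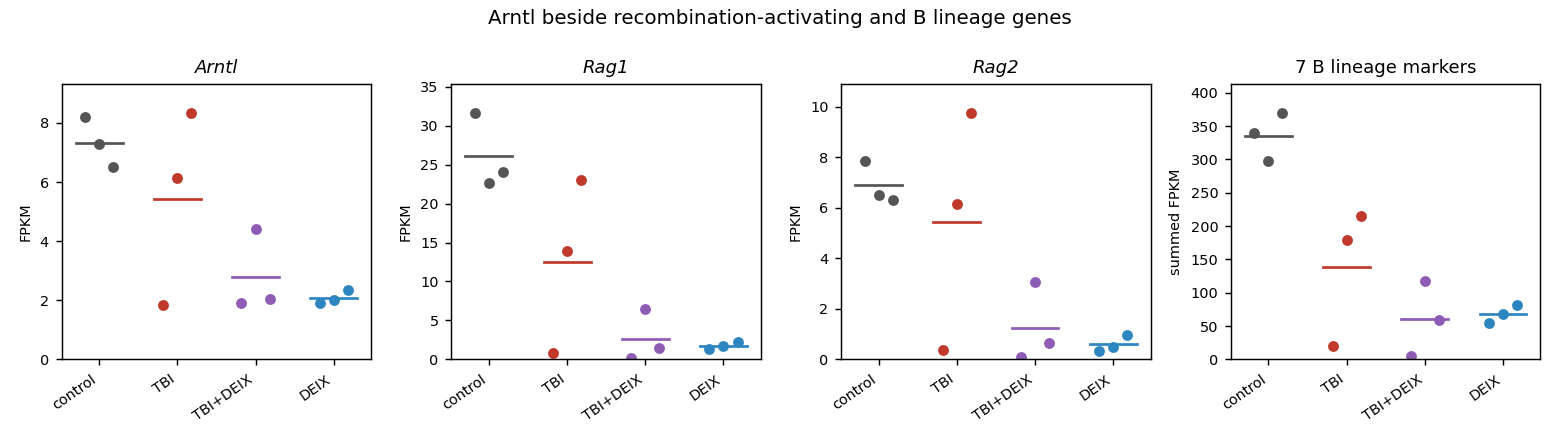
FPKM of Arntl, Rag1 and Rag2 and the summed FPKM of 7 B lineage markers (vertical axes, from 0) in the 12 libraries by group. Points are libraries in replicate order and lines are group means. TBI replicate 1 lies apart from the other TBI libraries in each panel, at 1.83 FPKM for Arntl and 0.795 for Rag1.

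Clock, which encodes the partner of BMAL1 (ENSMUSG00000029238.11, chromosome 5, 76209868 to 76304792, minus strand), varied less. It was at 2.67, 2.09 and 1.81 FPKM in control and 2.81, 2.43 and 2.16 in TBI. It was at 4.90, 2.49 and 2.80 FPKM in TBI+DEIX and 3.08, 2.87 and 2.94 in DEIX. DEIX lay just above control, and the TBI+DEIX mean of 3.39 ± 1.31 FPKM was raised by replicate 1. The log2 difference of TBI+DEIX from control was 0.43 (SE 0.183, adjusted p 0.098), and 0.20 without TBI+DEIX replicate 1. Without TBI+DEIX replicate 2 it was 0.58 and called (adjusted p 0.0411).

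Per1, Per2 and Per3 encode the PERIOD repressors, and Per1 is also switched on quickly by glucocorticoid hormones and by cyclic AMP signals. Promoter windows are shown for Per1, for its E-box (chr11:69098699-69098998, plus strand), and for Per3, for its 2 D-boxes (chr4:151044616-151044915, minus strand), with the motifs in capitals (RefSeq, GRCm38.p6).
Per1: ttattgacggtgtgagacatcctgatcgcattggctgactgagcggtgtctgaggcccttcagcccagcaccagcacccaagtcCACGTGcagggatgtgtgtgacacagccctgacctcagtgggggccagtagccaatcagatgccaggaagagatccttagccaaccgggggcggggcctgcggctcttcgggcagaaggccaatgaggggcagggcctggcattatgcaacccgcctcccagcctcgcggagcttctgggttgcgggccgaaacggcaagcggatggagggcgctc
Per3: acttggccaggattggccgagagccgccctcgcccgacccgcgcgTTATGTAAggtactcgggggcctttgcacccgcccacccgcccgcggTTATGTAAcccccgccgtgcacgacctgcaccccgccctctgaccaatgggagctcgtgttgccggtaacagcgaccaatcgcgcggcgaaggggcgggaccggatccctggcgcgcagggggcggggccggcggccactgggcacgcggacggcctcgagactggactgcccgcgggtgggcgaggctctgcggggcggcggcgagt

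Per1 (ENSMUSG00000020893.17, chromosome 11, 69095217 to 69109960, plus strand) was at 8.19, 5.94 and 5.57 FPKM in control. In TBI it was at 12.6, 10.1 and 6.65 FPKM. In TBI+DEIX it was at 26.6, 9.20 and 9.96 FPKM, and in DEIX at 21.5, 41.1 and 16.4 FPKM. Each DEIX library lay above each control and TBI library, and TBI+DEIX replicate 1 was the only other library in the DEIX range. Per1 rose by 1.77 on the log2 scale in DEIX against control (SE 0.403, adjusted p 0.0288), a 4.01-fold higher mean. It lost the call when values were rescaled to TPM (adjusted p 0.0645), without any 1 control library (0.0679 to 0.111) and without DEIX replicates 1 or 2 (0.0912 and 0.0564). TBI+DEIX differed from control by 0.96 (SE 0.403, adjusted p 0.095), and by 0.50 without TBI+DEIX replicate 1. With array weights it was 0.59 and called (adjusted p 0.0311), beside 56.3% of all tested genes. The DEIX effect on Per1 in irradiated mice minus that in unirradiated mice was -1.29 (SE 0.57, adjusted p 0.632), which did not pass the threshold. With array weights it was -1.64 and called (adjusted p 0.0129), beside 4.84% of all tested genes, and without TBI+DEIX replicate 1 it was -1.76 (0.0634).

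Per1 was set beside other genes that respond to glucocorticoids. Of the 10 glucocorticoid-responsive genes, all tested, DEIX against control called Fkbp5 higher and Il7r lower. The median change was 0.54 on the log2 scale, beside 0.02 over all genes, and 9 of 10 were higher by sign. TBI+DEIX against control called Fkbp5 and Errfi1 higher and Il7r lower. In TBI against control Il7r alone was called, as lower, and in TBI+DEIX against TBI limma called 0 genes, with 2 at an unadjusted p under 0.05. Il7r encodes the interleukin-7 receptor of lymphocyte precursors and is therefore also a B lineage gene. Across the 4 groups the F test called Fkbp5, Ddit4 and Il7r. Over all tested genes the F test called 21%, DEIX against control 7.24% and TBI+DEIX against control 30%. TBI against control called 3.99% of them and TBI+DEIX against TBI 8.1%. The summed level of the list ran from 198.4 to 214.2 FPKM in control and from 281.3 to 392.1 in DEIX, with TBI+DEIX between 247.4 and 283.8 and TBI between 181.4 and 221. The Il7r calls of DEIX and TBI against control (adjusted p 0.0496 and 0.0492) were lost in 12 and 14 of 20 alternatives, the Errfi1 call in 9 of 20 and the F call of Ddit4 in 11 of 19.

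Fkbp5, a co-chaperone of the glucocorticoid receptor and a standard marker of its activity, was at 20.0, 21.5 and 20.9 FPKM in control and 29.5, 23.0 and 24.4 in TBI. It was at 96.9, 33.5 and 34.8 FPKM in TBI+DEIX and 56.0, 73.2 and 50.4 in DEIX. As with Per1, TBI+DEIX replicate 1 and the DEIX libraries were the highest. It rose by 1.46 on the log2 scale in DEIX against control (SE 0.324, adjusted p 0.0258), a call lost in TPM (0.0909), without any 1 control library (0.0868 to 0.0908) and without any 1 DEIX library (0.0533 to 0.0912). In TBI+DEIX against control it rose by 1.18 (adjusted p 0.0189), and by 0.69 without TBI+DEIX replicate 1 (adjusted p 0.00438). That call was lost in TPM (0.0759), with only these groups in the fit (0.0813) and without any 1 control library (0.0516 to 0.0558).

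Klf9 and Ddit4 are glucocorticoid targets that encode a transcription factor and an inhibitor of growth signalling. Klf9, singled out after its values were seen, was at 2.72 to 2.96 FPKM in control, 14.8 in TBI+DEIX replicate 1, 2.73 and 3.01 in the other TBI+DEIX libraries, and 8.70, 15.7 and 6.48 in DEIX. It differed by 1.47 in DEIX against control (SE 0.464, adjusted p 0.0791). Ddit4 was at 7.31 to 9.15 FPKM in control and 19.2, 38.1 and 12.2 in DEIX, highest in the replicate that also led for Per1 and Klf9. In TBI+DEIX replicate 1 Ddit4 was at 10.4 FPKM, beside 6.44 and 7.75 in the other libraries of its group, so it did not stand out there as Per1, Fkbp5 and Klf9 did. Tsc22d3, the glucocorticoid-induced leucine zipper, was at 110, 126 and 110 FPKM in DEIX and 63.4 to 76.8 in control (adjusted p 0.0806), but at 50.1 in TBI+DEIX replicate 1, the lowest of all libraries. Hormone levels were not measured here, and the control mice have no stated gavage, so dosing and DEIX cannot be told apart in DEIX against control.

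**Figure D4:**
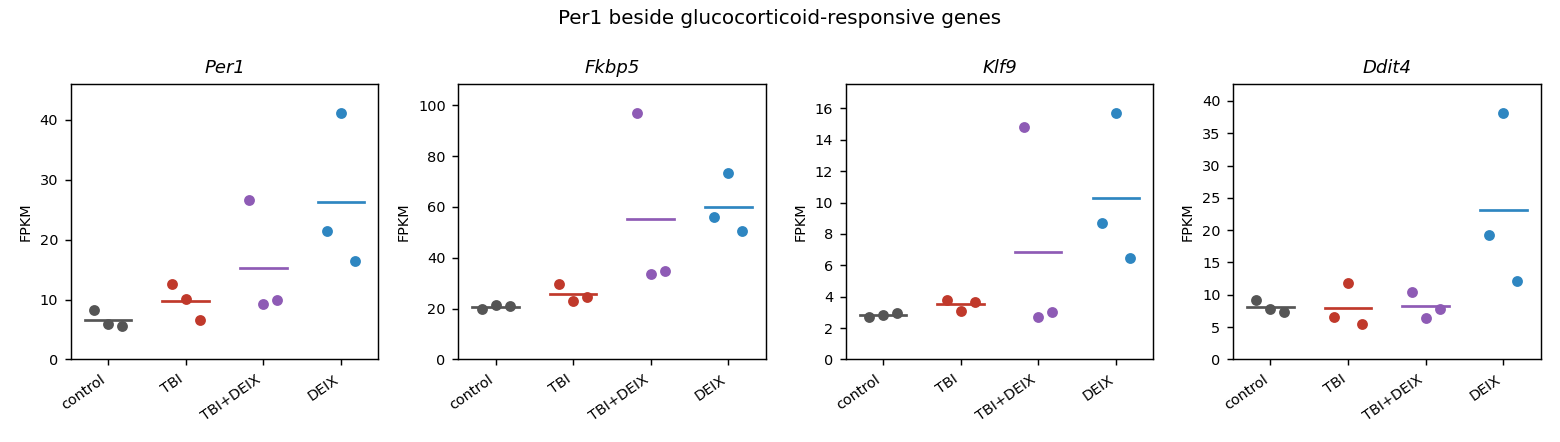
FPKM of Per1, Fkbp5, Klf9 and Ddit4 (vertical axes, from 0) in the 12 libraries by group. Points are libraries in replicate order and lines are group means. DEIX replicate 2 is the highest DEIX library in each panel, and TBI+DEIX replicate 1 lies within or above the DEIX range for Per1, Fkbp5 and Klf9 but not for Ddit4.

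Per2 (ENSMUSG00000055866.9, chromosome 1, 91415982 to 91459324, minus strand) had its higher means in the irradiated groups. It was at 3.54, 3.57 and 3.4 FPKM in control and 4.99, 5.22 and 4.74 in TBI. It was at 4.06, 5.95 and 4.87 FPKM in TBI+DEIX and 3.72, 3.70 and 4.38 in DEIX. Both irradiated groups lay above control without overlap. Per2 rose by 0.39 on the log2 scale in TBI+DEIX against control (SE 0.12, adjusted p 0.0311). That call was lost in TPM (0.354), with upper quartile scaling (0.0994), with only these groups in the fit (0.0998), without any 1 control library (0.0742 to 0.0884) and without TBI+DEIX replicates 2 or 3 (0.0958 and 0.0639). The difference of TBI from control was of like size, 0.41 (SE 0.12), with an adjusted p of 0.0945. It was called without TBI+DEIX replicate 1 (0.0174), with only these groups in the fit (0.0163) and with array weights (0.000249).

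Per3 (ENSMUSG00000028957.12, chromosome 4, 151003652 to 151044665, minus strand) was the steadiest member, from 1.55 to 2.28 FPKM over the 12 libraries. Control libraries held 2.07, 2.08 and 2.28 FPKM and TBI libraries 2.2, 2.18 and 1.95. Those of TBI+DEIX held 1.76, 1.55 and 1.72 FPKM and those of DEIX 1.92, 2.07 and 2.04. TBI+DEIX lay below the other groups without overlap. Its log2 difference from TBI was -0.22 (adjusted p 0.156) and from control -0.23 (adjusted p 0.077), neither past the threshold. With array weights both were called (adjusted p 0.0162 and 0.00918), beside 40.8% and 56.3% of all tested genes, and the latter also with upper quartile scaling (0.0291).

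Cry1 and Cry2 encode the CRYPTOCHROMES, the strongest repressors of the loop. The Cry1 window is shown for its E-box and, just upstream, its E-prime box, the sites through which CLOCK and BMAL1 act (chr10:85185005-85185304, minus strand, RefSeq, GRCm38.p6), both in capitals.
Cry1: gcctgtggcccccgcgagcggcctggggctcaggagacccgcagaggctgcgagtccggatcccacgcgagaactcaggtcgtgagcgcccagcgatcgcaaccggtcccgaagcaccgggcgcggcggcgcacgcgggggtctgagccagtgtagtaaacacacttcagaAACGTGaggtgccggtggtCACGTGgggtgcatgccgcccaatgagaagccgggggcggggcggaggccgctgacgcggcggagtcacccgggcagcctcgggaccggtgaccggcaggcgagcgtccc

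Cry1 (ENSMUSG00000020038.10, chromosome 10, 85131700 to 85185064, minus strand) was at 13, 11.9 and 13.3 FPKM in control and 15.5, 13.6 and 13.2 in TBI. It was at 24.3, 17.6 and 17.7 FPKM in TBI+DEIX and 19.1, 17.4 and 17.6 in DEIX. Every library of the groups given DEIX lay above every library of the groups that were not. Cry1 rose by 0.47 on the log2 scale in DEIX against control (SE 0.124, adjusted p 0.0457), by 0.59 in TBI+DEIX against control (adjusted p 0.00557) and by 0.45 in TBI+DEIX against TBI (adjusted p 0.0481). The call of TBI+DEIX against control held in 19 of 20 alternatives, with a change of 0.44 without TBI+DEIX replicate 1, and was lost in TPM (adjusted p 0.196). The change in TBI+DEIX against TBI was 0.31 without TBI+DEIX replicate 1. The calls of DEIX against control and of TBI+DEIX against TBI were also lost in TPM (0.548 and 0.52), with upper quartile scaling (0.101 and 0.0947) and with no filter (0.0557 and 0.066), and the former without any 1 control or DEIX library (0.0614 to 0.168) and without TBI replicates 2 or 3 (0.0709 and 0.0566). With only these groups in the fit TBI+DEIX against TBI had an adjusted p of 0.206, and without any 1 library other than TBI replicate 1 and TBI+DEIX replicates 1 and 2 it was between 0.0527 and 0.188. Rescaling to TPM also moved the median change of all tested genes from 0.016 to -0.12 in DEIX against control, from 0.0032 to -0.12 in TBI+DEIX against TBI and from 0.02 to -0.095 in TBI+DEIX against control.

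Cry2 (ENSMUSG00000068742.11, chromosome 2, 92403646 to 92434043, minus strand) was at 3.23, 3.62 and 3.97 FPKM in control, 3.35, 3.81 and 3.85 in TBI and 3.66, 3.87 and 3.61 in DEIX. In TBI+DEIX it was at 5.36, 2.82 and 3.04 FPKM, so replicate 1 lay above all other libraries and the other pair below them. The F test over the 4 groups gave an adjusted p of 0.997.

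Nr1d1 and Nr1d2 encode the REV-ERB repressors. Nr1d1 (ENSMUSG00000020889.11, chromosome 11, 98767932 to 98775333, minus strand) was at 0.672, 0.715 and 0.682 FPKM in control and 0.629, 1.21 and 0.88 in TBI. It was at 0.427, 0.878 and 0.89 FPKM in TBI+DEIX and 0.539, 1.01 and 0.777 in DEIX. The groups overlapped throughout. With no filter on low values, where it entered the test, its log2 differences ran from -0.14 to 0.16 over the comparisons of groups and none was called. The gene most like it over the 12 libraries was Dennd2a (Pearson r 0.833), followed by Ear2 (0.813), Rnase4 (0.797), Pcbp1 (0.785) and Slc6a12 (0.77). Without TBI+DEIX replicate 1 these were between 0.667 and 0.759.

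Nr1d2 (ENSMUSG00000021775.11, chromosome 14, 18204054 to 18239127, minus strand) was at 3.65, 3.00 and 3.06 FPKM in control and 2.74, 3.54 and 2.97 in TBI. It was at 2.22, 2.38 and 2.46 FPKM in TBI+DEIX and 2.58, 3.96 and 3.96 in DEIX. TBI+DEIX lay below each other group, by a log2 difference of -0.41 from DEIX (SE 0.141, adjusted p 0.172) and -0.34 from control (adjusted p 0.0955), neither called. The latter was called without DEIX replicate 1 (0.0454).

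Dbp (ENSMUSG00000059824.12, chromosome 7, 45705088 to 45710203, plus strand), an output factor of the clock, was at 2.41, 2.53 and 2.85 FPKM in control and 1.44, 2.41 and 2.29 in TBI. It was at 0.708, 1.91 and 1.48 FPKM in TBI+DEIX and 1.26, 2.25 and 1.75 in DEIX. The 3 control libraries were the highest of the 12, the lowest of them only narrowly above TBI replicate 2. Dbp fell by 0.64 on the log2 scale in TBI+DEIX against control (SE 0.207, adjusted p 0.0387). Without TBI+DEIX replicate 1 that change was -0.42 (adjusted p 0.0869). The call was also lost with no filter on low values (0.0617), with only these groups in the fit (0.0761), without any 1 control library (0.0754 to 0.115), and without TBI+DEIX replicate 3 (0.0593), TBI replicate 3 (0.05) or DEIX replicate 3 (0.0541).

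As a check on the hour of collection, Arntl was set against the genes that peak in near antiphase to it. The log2 ratio of Arntl to Nr1d1 in FPKM was 3.25 to 3.61 in control, 1.54 to 3.24 in TBI, 1.20 to 2.32 in TBI+DEIX and 0.99 to 1.82 in DEIX. The log2 ratio of Arntl to Dbp was 1.19 to 1.76 in control and -0.17 to 0.59 in DEIX, while TBI (0.35 to 1.87) and TBI+DEIX (0.47 to 1.44) overlapped control. Both ratios were thus lower in DEIX than in control without overlap. Dbp was itself lower in DEIX than in control, and Nr1d1 overlapped between them. The log2 ratio of Dbp to Nr1d1, 2 genes of like phase, was 1.82 to 2.06 in control and 0.73 to 1.38 in all other libraries. Within the PERIOD genes, the log2 ratio of Per1 to Per2 was 0.71 to 1.21 in control and 1.91 to 3.47 in DEIX, while TBI (0.49 to 1.34) and TBI+DEIX (0.63 to 2.71) overlapped control, and neither Per2 nor Per3 was called in DEIX against control. The hour of collection is not stated, and its part in these differences was not tested.

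The promoter windows of 9 members were found in the RefSeq table, 13 windows in all, and Per2 was not among them. On either strand, the E-box CACGTG was in windows of 2 members (Per1 and Cry1) and the E-prime box CACGTT, a different sequence, in 3 (Cry1, Cry2 and Nr1d1). The D-box TTANGTAA was in 1 (Per3) and the ROR element, AANT followed directly by AGGTCA, in 1 (Arntl). The cyclic AMP element TGACGTCA and the glucocorticoid element, GNACA and TGTNC with any 3 bases between them, were in none. Counted by window in that order, the motifs were in 2, 3, 1, 1, 0 and 0 of the 13 member windows. Of all 32851 windows of the same length, 7.15% held the E-box, 4.68% the E-prime box, 2.32% the D-box, 0.219% the ROR element, 1.79% the cyclic AMP element and 0.475% the glucocorticoid element. A match is only a run of letters in a short window.

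Of the 12 genes of the auxiliary loop, 6 passed the filter. DEIX against control called Nfil3 higher, and TBI+DEIX against control called Nfil3 and Bhlhe40 higher, with 0 lower in either. Over all tested genes these comparisons called 4.52% and 16.9% as higher. By limma 0 were called in TBI against control and in TBI+DEIX against TBI, with 2 and 1 at an unadjusted p under 0.05. Those comparisons called 3.99% and 8.1% of all tested genes. Nfil3, the repressor that competes with DBP at D-boxes, was at 16.7, 17 and 18 FPKM in control and 28.9, 22.2 and 18.5 in TBI. It was at 27.3, 34.1 and 39.8 FPKM in TBI+DEIX and 36.3, 28.1 and 30.1 in DEIX. It rose by 0.91 on the log2 scale in TBI+DEIX against control (SE 0.17, adjusted p 0.00294), a call that held in each alternative run, and by 0.83 in DEIX against control (adjusted p 0.0196), a call lost in TPM (0.0589) and without any 1 control library (0.0674 to 0.083) or DEIX replicates 1 or 3 (0.0956 and 0.0629). Bhlhe40, an E-box repressor, was at 7.68 to 8.83 FPKM in control and at 28.8, 11.2 and 13 in TBI+DEIX, a log2 rise of 0.90 (adjusted p 0.0239) that was 0.50 without TBI+DEIX replicate 1 and was not called in TPM (0.13), with upper quartile scaling (0.0518), with only these groups in the fit (0.101) or without any 1 control library (0.0536 to 0.072). Tef, a relative of Dbp, chosen after its values were seen, averaged 5.09 FPKM in control, with means of 3.39 and 3.05 in TBI and TBI+DEIX. In DEIX its mean was 4.03 FPKM with a range of 2.27 to 5.88, which spans control, and it was not called in any comparison.

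Of 12 kinases and ubiquitin ligase genes that set the lifetime of PER and CRY, 11 were tested. Btrc, a ligase subunit that marks PER proteins for destruction, fell in each comparison that involved DEIX and a group without it. It was at 14.9, 13.3 and 12.6 FPKM in control and 13.3, 9.2 and 14 in TBI. It was at 6.51, 6.31 and 5.57 FPKM in TBI+DEIX and 5.97, 10.9 and 7.28 in DEIX. The log2 change was -1.03 in TBI+DEIX against control (adjusted p 0.00307, called in each alternative), -0.87 in TBI+DEIX against TBI (0.0276) and -0.72 in DEIX against control (0.0479). The last was lost in 13 of 20 alternatives (adjusted p up to 0.181), and TBI+DEIX against TBI in 7 (up to 0.144). Gsk3b rose in DEIX (0.43, adjusted p 0.0409) and TBI+DEIX (0.59, adjusted p 0.00299) against control, and both were lost in TPM (0.571 and 0.153), the former in 10 of 20 alternatives. TBI+DEIX against control also called Fbxw11 and Usp2 higher, each lost in TPM (0.697 and 0.113) and in 12 and 9 of 20 alternatives. By limma TBI against control called 0 of the 11, with 2 at an unadjusted p under 0.05. Over all tested genes TBI+DEIX against control called 30% and TBI+DEIX against TBI 8.1%. DEIX against control called 7.24% of them and TBI against control 3.99%.

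All 12 cofactor genes were tested, and Ep300 and Wdr5, parts of histone-modifying complexes, were called higher in TBI+DEIX against control (log2 changes of 0.51 and 0.51, adjusted p 0.0112 and 0.00254). Neither was called in TPM (0.225 and 0.24). By limma 0 cofactor genes were called in the TBI to control, TBI+DEIX to TBI and DEIX to control comparisons, with 0, 2 and 1 at an unadjusted p under 0.05. Of 10 rhythmic output genes, Wee1, a cell cycle kinase under clock control, fell in TBI+DEIX against TBI (-0.42, adjusted p 0.0265) and against control (-0.30, adjusted p 0.0303), lost in 6 and 5 of 20 alternatives, TPM among them (0.19 and 0.185). Por, the reductase that serves cytochrome P450 enzymes, rose in TBI+DEIX against control (0.50, adjusted p 0.0237), lost in 8 of 20, TPM among them (0.159). By limma 0 output genes were called in TBI or in DEIX against control, with 1 and 2 at an unadjusted p under 0.05. Over all tested genes TBI+DEIX against control called 30% (16.9% higher and 13.1% lower) and TBI+DEIX against TBI 8.1%. DEIX against control called 7.24% of them and TBI against control 3.99%.

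Marker sums of other marrow lineages lay apart from control in some groups and overlapped it in others. The summed level of 8 erythroid markers ran from 3508 to 5435 FPKM in control and from 235.1 to 1712 in TBI+DEIX, lowest in replicate 1, while TBI (1919 to 8404) and DEIX (1423 to 8318) overlapped control. The sum of 6 stem and progenitor markers was 53.7 to 55.0 FPKM in control and lower in TBI (26.6 to 28.0), TBI+DEIX (21.8 to 31.8) and DEIX (39.0 to 52.8). For 5 megakaryocyte and platelet markers it was 103.8 to 159.9 FPKM in control, 23.1 to 43.4 in TBI, 21.03 to 38.1 in TBI+DEIX and 58.1 to 97.7 in DEIX. The sum of 8 monocyte and macrophage markers was 949.7 to 1042 FPKM in DEIX and 524 to 593.6 in control. For 8 maturing neutrophil markers it was 20410 to 52020 FPKM in TBI+DEIX and 21520 to 30130 in control, which overlap. Marker by marker, 7 of these 8 were higher in that comparison, with a median log2 change of 0.87 beside 0.02 over all genes. Of them Ltf, Mmp9 and Cxcr2 were called higher, beside 16.9% of tested genes, and 4 (these and Lcn2) lay above control without overlap, beside 23.9%. The sum of 7 T and NK cell markers was 151.4 to 187.4 FPKM in control and lower without overlap in TBI (99.1 to 139) and TBI+DEIX (58 to 145.1), and it overlapped control in DEIX (132.2 to 192.4). Marker by marker, all 7 were lower by sign in DEIX against control, with a median log2 change of -0.31 beside 0.02 over all genes. Of them 3 lay below control without overlap, beside 17.2% of tested genes, and limma called 0. Per2 lay above control without overlap in TBI, TBI+DEIX and DEIX. The sum of 5 promyelocyte markers in each other group overlapped that of control. TBI+DEIX replicate 1 held the highest or lowest of the 12 values for 6 of the 10 members, and control replicate 3 for 5. The part of lineage content in the member differences was not tested.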

How the data were processed

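The authors deposited FPKM per gene and library in a single table. STAR 2.6, Cufflinks 2.2.1 and the mm10 build are named in the submitters' processing notes. Settings and annotation are not given in the sources used here. All 21853 identifiers matched symbols of GENCODE M21 on GRCm38, the mm10 assembly, which gave gene coordinates. Total reads are not given. The FPKM worth of 1 fragment was estimated from the most frequent low value of FPKM times length over single-transcript genes longer than 2500 bases.

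The log2(FPKM + 1) values, on which changes of low genes look smaller than they are, entered 1 model of the 4 group means in limma 3.58.1 (R 4.3.3, eBayes with trend) with Benjamini-Hochberg adjustment. The code was tested on simulated data. Spread differed between groups, with a root mean square SD of 0.199 in control and 0.442 in TBI+DEIX. Members and gene lists were chosen with earlier results of these data known. All members are named. A list gene is named where called or among the 3 highest of its list. For Arntl and Nr1d1 the 5 genes with the highest r are also named. Npas2, Arntl2, Tef and Klf9 fall outside that rule and were named after their values were seen. Lists covered the auxiliary loop, kinases and degradation, cofactors, rhythmic outputs, glucocorticoid-responsive, immediate early and leukocyte traffic genes. Of the listed and marker genes, 2 are not reported here, and the B lineage sum was computed without the 1 that belonged to it. For array weights, limma's gene-by-gene method was used because the default did not converge.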

Additional observations from a re-analysis of the deposited data

How the results depend on the processing

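The 8 member differences that were called kept their direction in each of 20 refits (160 values in all), but each lost its call in at least 1. With no filter on low values the count of called members fell to 0 in TBI+DEIX against TBI, 1 in DEIX against control, 2 in TBI+DEIX against control and 1 in the F test, and the share of all genes called fell too, to 3.91%, 4.65%, 21% and 14.8% from 8.1%, 7.24%, 30% and 21%. In TPM these counts were 0, 1, 2 and 1, with 1.43%, 2.57%, 16.2% and 9.93% of all genes called. With upper quartile scaling TBI+DEIX against TBI called 0 (7.87% of all genes). With only the compared groups in the fit, TBI against control called 1, TBI+DEIX against TBI 0 and TBI+DEIX against control 2, with 12.9%, 0% and 19.8% of all genes called. Array weights gave 3 in TBI against control, 4 in TBI+DEIX against TBI, 5 in DEIX against control, 7 in TBI+DEIX against control, 2 in TBI+DEIX against DEIX, 1 in the interaction and 7 in the F test, with 38.4%, 40.8%, 41%, 56.3%, 8.62%, 4.84% and 69.3% of all genes called. Leaving out 1 library gave 0 to 1, 0 to 2, 0 to 3, 1 to 5, 0 to 2, 0 to 0 and 0 to 4 members in the same order. The shares of all genes called in these fits are not given here, so the ranges cannot be set against them. A group left with 2 libraries has fewer degrees of freedom. Otherwise the cause of these ranges was not tested. Same-numbered libraries did not deviate together (r over 0.1 in 3 of 18 pairs, from -0.45 to 0.24), so the numbers were not read as pairs. With the replicate number as a block, 0, 1, 3, 4, 0, 0 and 3 members were called, the same counts as without it. Beside them 3.44%, 4.31%, 5.82%, 27.3%, 1.64%, 0.182% and 17.2% of all genes were called. In the F test Arntl was lost (adjusted p 0.0531) and Dbp gained (0.0485). Over all genes TBI+DEIX against TBI called 4.31% in place of 8.1%. Depth limits Nr1d1 and Dbp most.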

Other observations

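Immediate early genes respond within minutes to stimulation. Of 12, 10 were tested. By sign 9 of the 10 were lower in TBI against control, with a median log2 change of -0.48 beside 0.05 over all genes. In TBI+DEIX against TBI 9 were higher, with a median of 0.66 beside 0.003. The TBI group is shared by both comparisons. In DEIX and in TBI+DEIX against control 4 and 5 of the 10 were higher. TBI against control called Klf2 lower, by a log2 change of -0.59 (adjusted p 0.0344), and TBI+DEIX against TBI called Junb (0.93, adjusted p 0.0198), Ier3 (0.76, adjusted p 0.0231) and Klf2 (0.96, adjusted p 0.0108) higher. Klf2, a transcription factor of quiescent lymphocytes and endothelium, was at 70.4, 74.3 and 96.5 FPKM in control and 56.6, 50.7 and 50.9 in TBI. It was at 110, 99.7 and 99.3 FPKM in TBI+DEIX and 76.4, 96.3 and 78.7 in DEIX. TBI+DEIX against control called Junb and Ier3 higher, and DEIX against control called 0 by limma, with 1 at an unadjusted p under 0.05. Over all tested genes TBI against control called 3.99% and TBI+DEIX against TBI 8.1% (4.69% higher). TBI+DEIX against control called 30% of them (16.9% higher) and DEIX against control 7.24%. The calls of TBI+DEIX against TBI were lost with only these groups in the fit (adjusted p 0.144 for each) and in TPM (0.0558, 0.106 and 0.0811). The Klf2 call of TBI against control was lost in 9 of 20 alternatives and the Junb call of TBI+DEIX against control in 13.

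Of 10 genes of rhythmic leukocyte traffic, 9 were tested. Cxcl12, the chemokine that stromal cells use to hold stem cells and neutrophils in marrow, was at 14.3, 11.8 and 9.38 FPKM in control and 17.3, 22.9 and 8.03 in TBI. It was at 12.5, 15.6 and 10.3 FPKM in TBI+DEIX and 2.27, 5.16 and 3.34 in DEIX. It fell by 1.51 on the log2 scale in DEIX against control (SE 0.335, adjusted p 0.0258) and was 1.62 higher in TBI+DEIX than in DEIX (adjusted p 0.0317). Of the other 6 stroma, bone and endothelium markers, 4 were lower in each DEIX library than in each control library, beside 17.2% of tested genes (Lepr, Bglap, Cdh5 and Kitl). Lepr, Cdh5 and Kitl did not pass the filter and are not among those tested genes. In TBI, where the mean of Cxcl12 was 1.36-fold that of control, the means of Lepr, Col1a1, Bglap and Kitl were 1.7, 2.48, 1.53 and 1.37-fold and those of the endothelial genes Pecam1 and Cdh5 0.462 and 0.817-fold. Bglap spanned 1.02 to 3.54 FPKM in TBI and 0.8 to 1.5 in control, so its highest TBI library raised that mean. Kitl also overlapped control, at 0.394 to 0.815 FPKM in TBI beside 0.329 to 0.52. In TBI+DEIX the mean of Cxcl12 was 1.08-fold that of control, those of Lepr, Kitl and Col1a1 were 1.02, 1.04 and 1.24-fold, and those of Bglap, Cdh5 and Pecam1 were 0.141, 0.436 and 0.505-fold. Kitl spanned 0.13 to 0.822 FPKM in TBI+DEIX, on both sides of control, and Bglap 0 to 0.368, so these folds depend on single libraries. Of the 6 markers beside Cxcl12, each but Pecam1 was low, at 3.54 FPKM or less in every library. The part of these markers in the fall of Cxcl12 was not tested. The call of DEIX against control was lost without any 1 control library (0.0658 to 0.0966) and without DEIX replicates 1 or 3 (0.114 and 0.0872), and that of TBI+DEIX against DEIX in 9 of 20 alternatives. Its receptor gene Cxcr4 was not called, at 227 to 302 FPKM in all libraries but TBI+DEIX replicate 1, which had 116. Cxcr2, the neutrophil release receptor, rose in TBI+DEIX against control (1.05, adjusted p 0.0142, called in each alternative). In that comparison 3 of the 8 maturing neutrophil markers, Cxcr2 among them, were called higher, beside 16.9% of tested genes, and their part in its rise was not tested. Icam1 rose in TBI+DEIX against TBI (0.63, adjusted p 0.025, lost in 5 of 20 alternatives). By limma TBI against control called 0 genes of the list, with 1 at an unadjusted p under 0.05. Over all tested genes TBI against control called 3.99% and DEIX against control 7.24%. TBI+DEIX against TBI called 8.1% of them and TBI+DEIX against DEIX 2.57%.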
